A study of Mus musculus with 20 samples.

Results

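Epididymal fat of 10 mice with an intact Tnf gene was ordered by its level of Adgre1, the gene for the macrophage surface receptor F4/80, and every other gene was described by how it varied along that order. The 10 mice, called wt, were part of a series of 20 arrays, 1 array per mouse. They were male C57BL/6 littermates that carried 2 floxed alleles of Tnf and no LyzM-Cre transgene (Tnf fl/fl, LyzMcre-/-), so that no allele was deleted. The other 10 mice, called cre, carried the same floxed alleles with LyzMcre+/-, in which the lysozyme M promoter drives Cre in macrophages and also in neutrophils and other myeloid cells. Both genotypes received chow up to week 10 of life and for the next 18 weeks a diet in which fat supplied 40% of the energy; tissue was taken at an age of 28 weeks. The arrays came in 2 batches with 5 mice of each genotype in both. Body weights were not used here. From every gene the mean of its batch over the 5 wt mice was subtracted, and Pearson's r with the single Adgre1 probe set was taken over the 10 wt mice for 19504 other genes. These correlations chose the genes, so they are given as a description and without a test in wt; tests were made in the cre mice, which the choice did not use.

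In diet-induced obesity, macrophages accumulate in visceral fat, where they surround dying adipocytes, take up lipid and digest it in lysosomes. F4/80 marks most tissue macrophages of the mouse and is also found on eosinophils. Macrophages depend on the transcription factor PU.1, encoded by Spi1, and signal through Fc receptors and adaptors with immunoreceptor motifs, while TNF-α, a cytokine they make, acts on adipocytes to lower genes of lipid storage and insulin response. In whole tissue, fewer cells of a type and less RNA per cell cannot be told apart.

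To show regulatory sequence of genes that moved together, the bases before the start site are printed for 2 of the genes with positive r described below, Pirb and Cd72, in which a PU.1 motif stood close to the start. They come from RefSeq on GRCm38.p6, the 250 bases before the start site, read 5′ to 3′ on the gene's strand, with the motif in capitals. Pirb lies on the minus strand at chr7:3720383-3720632, and Cd72 on the minus strand at chr4:43454627-43454876.
Pirb: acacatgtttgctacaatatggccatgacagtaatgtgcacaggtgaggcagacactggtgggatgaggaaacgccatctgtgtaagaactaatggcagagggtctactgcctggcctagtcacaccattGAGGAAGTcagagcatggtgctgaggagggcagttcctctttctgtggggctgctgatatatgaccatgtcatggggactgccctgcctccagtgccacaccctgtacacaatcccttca
Cd72: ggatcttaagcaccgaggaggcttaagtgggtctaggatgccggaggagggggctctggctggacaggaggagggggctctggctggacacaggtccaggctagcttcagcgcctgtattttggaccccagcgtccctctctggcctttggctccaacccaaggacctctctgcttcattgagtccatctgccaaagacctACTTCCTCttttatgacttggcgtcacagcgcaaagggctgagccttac
The PU.1 motif searched was GAGGAAGT on both strands. It ends 112 bases before the start site of Pirb, and in Cd72 it lies on the opposite strand, 41 bases before the start. Of 15691 genes with a promoter in that table, 346 (2.21%) held it within the 250 bases. It was held by 28 of 408 genes (6.86%) with r of at least 0.8, among them C1qc, Pf4, Vav1, Inpp5d, Tlr1 and Rel, and by 3 of 130 genes (2.31%) with r of at most -0.8. Among 49 genes named by rank in this account, 40 had a promoter in the table and 2 held the motif. A match describes the letters in this window and is no evidence of binding.

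Adgre1, at chr17:57358581-57483529, had a mean log2 signal of 12.79 ± 0.86 (SD, n = 10) in wt mice. The values ran from 11.41 in wt 3 to 14.28 in wt 5, a range of 2.88 log2 units or 7.35-fold. The other mice lay between, with wt 2 at 13.71, wt 9 at 13.50, wt 10 at 13.11, wt 8 at 12.69, wt 1 at 12.41, wt 6 at 12.35, wt 7 at 12.27 and wt 4 at 12.17. Mouse wt 5 stood highest and wt 3 lowest, and both belonged to batch 1; the batch means were 12.78 and 12.81. The cre mice had a mean of 12.52 ± 1.0 (SD, n = 10) and ran from 10.66 to 13.91, so the ranges overlapped. The batch-adjusted difference, cre minus wt, was -0.28 log2 units (two-sided exact permutation of genotype within batches, p = 0.518), and it was -0.67 in batch 1 alone and 0.12 in batch 2 alone.

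The macrophage label was checked against 20 measured genes of macrophage identity other than Adgre1. Of these, 19 had positive r and 9 had r of at least 0.8, with a median of 0.79, against a median of -0.03 over all genes. The mean log2 signal of the list was highest in wt 5, at 13.87, as Adgre1 was. It was lowest in wt 4, at 11.89, whereas wt 3, the lowest in Adgre1, had 12.29. Eosinophil genes were mixed. Epx, a granule peroxidase, ranged from 3.20 to 3.73 and Siglecf from 4.09 to 5.08 in wt mice, where the lower quartile of all signals lay between 4.62 and 4.92, with r of -0.43 and 0.51. Prg2 had r of -0.01, Il5ra 0.25 and Ccr3, an eotaxin receptor, 0.75. The part of eosinophils in the Adgre1 signal was not tested. Medians of the 10 wt arrays lay between 6.5 and 6.58 and no 2 arrays were identical. The interquartile range of an array's signals correlated with Adgre1 at r = 0.64 and rho = 0.56 (exact permutation within batches, p = 0.106 and 0.132), and at r = 0.11 without wt 5 and wt 2, the mice farthest from the median of Adgre1.

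Some mice stood apart by genes of other tissues. In wt 6 the mean of a list of seminal vesicle genes was 16.8, with the next wt mouse at 5.66. Its mean of a prostate list of 4 measured genes was 7.56, with the next at 5.27, and rested on Spink1 alone. Spink1 had a wt maximum of 16.81 and a median of 6.45. The wt maxima of Pbsn, Msmb and Tgm4, the others of that list, were 5.08, 3.95 and 5.47. In wt 4 a liver list reached 14.6 (next 11.9) and an exocrine pancreas list 7.76 (next 5.88). Among cre mice, cre 3 had a seminal vesicle mean of 6.89 (next 5.44) and cre 9, the cre mouse of lowest Adgre1, an erythroid mean of 12.7 (next 8.25). Mouse wt 6 also had the lowest mean of the mature adipocyte list, 12.97 against a wt median of 15.14. The main counts are given with and without these mice, and the medians of several lists with and without wt 6.

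Of the 19504 genes, 502 (2.57%) had r of at least 0.8 with Adgre1 and 165 (0.846%) had r of at most -0.8; since these counts are the rule's own, nothing is read from their size. Among genes above the median signal, Tpm3 and Arhgap10 lay just inside 0.8 and Ppt1 and Brox just outside, all at 0.80 to 2 decimals. On the other side Nhlrc2 and Hspb6, both at -0.80, were inside, and Ctnnbip1 and Pycrl, also -0.80 to 2 decimals, were outside. Both batches alone gave r past 0.8 for 210 of the 502 and 68 of the 165 genes. Without wt 5 and wt 2, 164 and 55 of them remained past 0.8. The size of both groups turned on single mice: without wt 5, 348 genes had r of at least 0.8 and 227 of the 502 remained, and without wt 6, 804 genes had r of at least 0.8 and 765 had r of at most -0.8, with 490 of the 502 and 160 of the 165 among them. Without both wt 6 and wt 4 the counts were 928 and 929, with 471 and 149 kept.

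**Figure D1:**
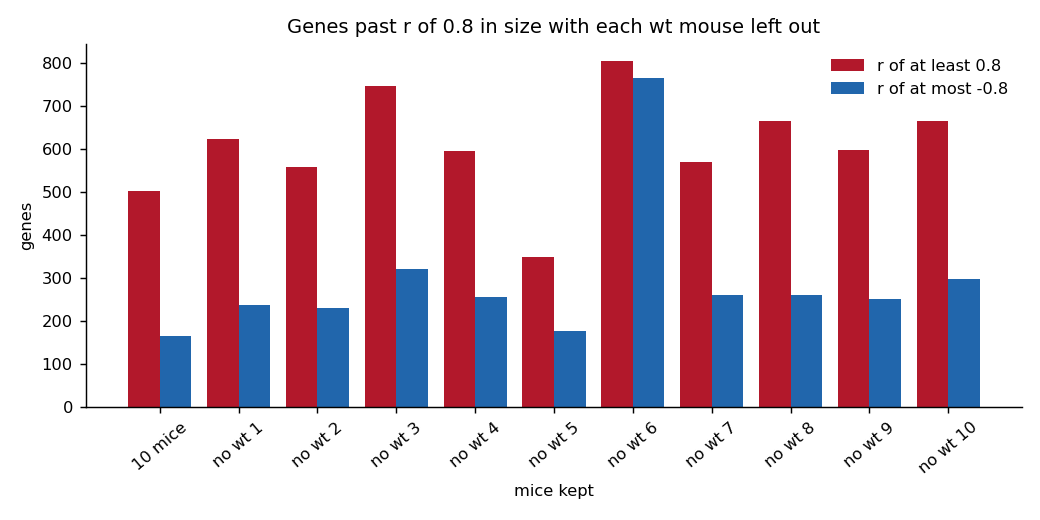
Number of genes with Pearson r of at least 0.8 (red) and of at most -0.8 (blue) with Adgre1 in all 10 wt mice and with each mouse left out in turn; the vertical axis counts genes. Leaving out wt 6 raises the number with r of at most -0.8 from 165 to 765, and leaving out wt 5 lowers the number with r of at least 0.8 from 502 to 348.

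Of the genes most like Adgre1 over the 10 wt mice, Pirb, an inhibitory immunoglobulin-like receptor (chr7:3712505-3720382), had the highest r, 0.99, with a log2 signal from 12.08 in wt 3 to 14.47 in wt 5 and a median of 12.86. Its order over mice was nearly that of Adgre1, and r stayed between 0.98 and 0.99 whichever mouse was left out. Pirb belongs to a family of similar receptors, so probes may also read its relatives. Other receptors and channels near it were Gpr157, an orphan receptor (r = 0.98), the complement C5a receptor C5ar1 (0.95) and P2rx4, an ATP-gated channel (0.95). Proteins of the lysosome were Gpr137b of its membrane (0.96), Pld3 (0.96), Prcp (0.95) and Lgmn, the protease legumain (0.95). Tbxas1, thromboxane synthase, had r of 0.95 and ran from 11.10 to 13.57 with a median of 11.80. Tnfaip8l2, a brake on immune signalling, had r of 0.97, and St8sia4, a polysialyltransferase, 0.96. Rasal3, a Ras-inactivating protein of blood cells (0.96), Pitpnc1, a lipid transfer protein (0.95), Adcy7, an adenylate cyclase (0.95), and Runx1, a transcription factor of blood cells (0.95), completed the 15 highest. In each of the 2 batches alone these 15 genes had r of at least 0.82.

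Slopes, given as log2 units of a gene per log2 unit of Adgre1, singled out other genes. Glipr1, a secreted or membrane protein of the CAP family, had the steepest, 1.55, with signals from 10.55 in wt 3 to 15.04 in wt 5 and a median of 12.49. Cd72, an inhibitory lectin of B cells and macrophages, followed at 1.43 (9.4 to 13.57, median 10.84). Lair1, an inhibitory collagen receptor, had a slope of 1.37, the adhesion protein Cadm1 1.27 and the metalloprotease Adam8 1.22. Itgax, which encodes CD11c, a mark of the macrophages that gather around adipocytes, had a slope of 1.22 and r of 0.89. Its signal was 9.63 in wt 3, 10.86 at the median and 13.05 in wt 5. Mice wt 2, wt 5 and wt 9, the 3 highest in Adgre1, were also the 3 highest in Itgax. Folr2, a folate receptor of resident macrophages, had a slope of 1.21 (11.35 to 14.99, median 12.46), and the serotonin receptor Htr2b one of 1.22. These 8 genes were less even between batches: Htr2b had r of 0.96 in batch 1 and 0.40 in batch 2, and Glipr1 0.98 and 0.53.

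**Figure D2:**
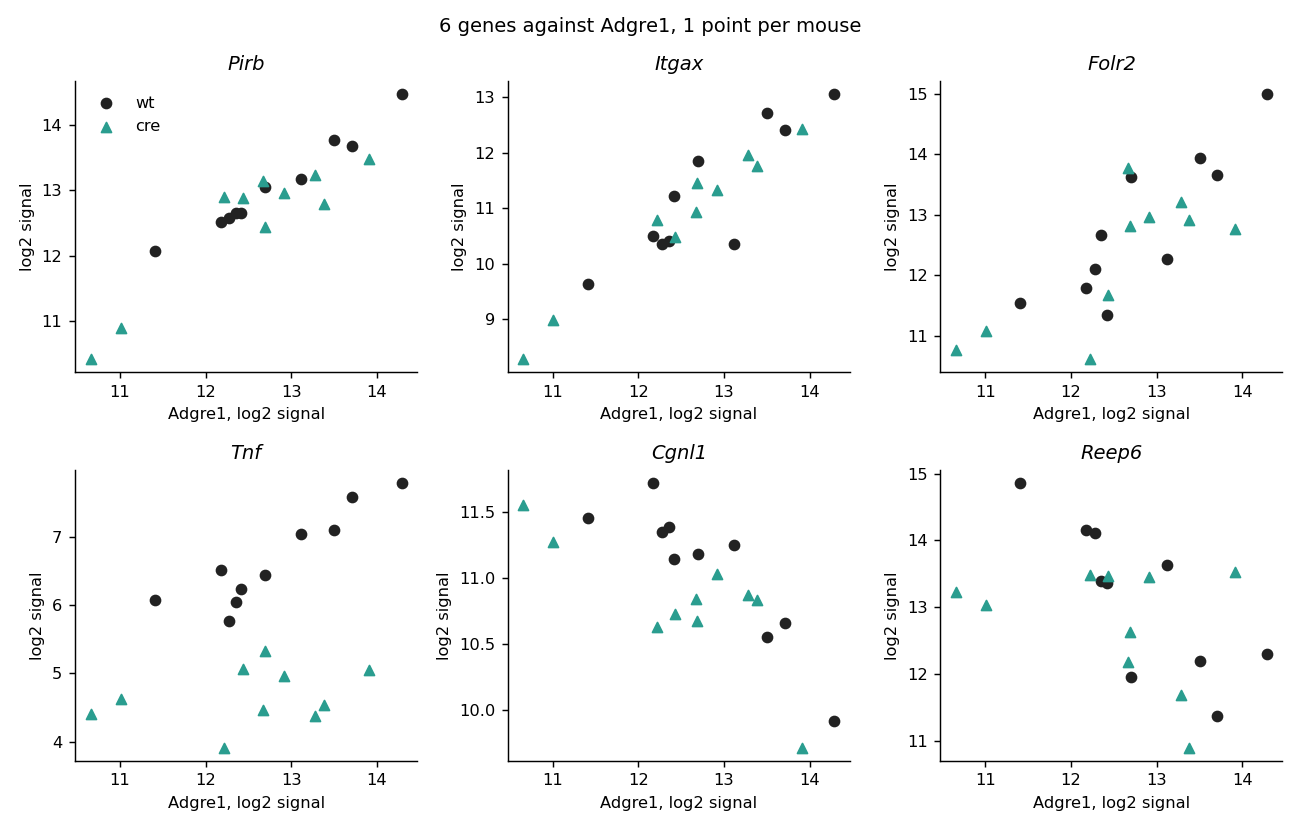
Log2 signal of Pirb, Itgax, Folr2, Tnf, Cgnl1 and Reep6 against the log2 signal of Adgre1, 1 point per mouse, for 10 wt (circles) and 10 cre (triangles) mice. Tnf runs from 5.78 to 7.80 in wt and from 3.91 to 5.34 in cre mice, without overlap, while Pirb and Itgax follow Adgre1 in both.

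Macrophage genes were described by lists, counted over measured members. Among identity genes, Spi1 (r = 0.93), the NADPH oxidase gene Cybb (0.93), the lysosomal Laptm5 (0.91) and the lipopolysaccharide co-receptor Cd14 (0.90) stood highest, Csf1r, the receptor for the macrophage growth factor, had 0.74, and Adgre4, a relative of Adgre1, had -0.14. Fc receptors and their adaptors were positive in 14 of 14 (median 0.76), with 5 at 0.8 or above, or 8 without wt 6. Among them were Fcgr3 at 0.93 and the phagocytosis checkpoint Sirpa at 0.93. Of 20 genes for lysosomal hydrolases and the proton pump, 19 were positive and 9 were at 0.8 or above (median 0.77), among them Gusb (0.94), Ctsa (0.93), Hexa (0.88) and the pump subunits Atp6v1b2 (0.89) and Atp6v1a (0.87). Of 19 genes of lipid-associated macrophages, 6 were at 0.8 or above: the acid lipase Lipa (0.93), Ctsb (0.92), Itgax, Ms4a7 (0.83), Gpnmb (0.81) and the droplet protein Plin2 (0.80). Without wt 6 this count was 10, with 2 at -0.8 or below, and the median went from 0.68 to 0.81; it was 0.94 in batch 1 and 0.28 in batch 2. Trem2, the lipid receptor that defines this state, had 0.68. Lpl (-0.20), Fabp4 (-0.23) and Lgals1 (-0.35) of the same list were negative; adipocytes express the first pair strongly. MHC class II genes were positive in 9 of 9, between 0.46 and 0.70, and Toll-like receptor and NF-kappaB genes in 16 of 16 (median 0.65), with Tlr13 at 0.92 and the TNF receptor Tnfrsf1b at 0.91 against 0.09 for the other receptor, Tnfrsf1a.

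Activation genes did not share 1 pattern. Tnf itself, at chr17:35199367-35202007, had r of 0.91 and a slope of 0.72. Its signal was lowest in wt 7, at 5.78, had a median of 6.48 and was highest in wt 5, at 7.80. Ccl3, a chemokine, had r of 0.87 and a slope of 0.99, and the costimulatory receptor Cd40 0.82. In contrast Il1b (-0.06), Ccl2 (-0.03), Nos2 (-0.01) and Il6 (-0.17), classical products of activated macrophages, had r near 0, some at low signal. The median of the 17 genes of this list was 0.54. Ccr2, the receptor that brings monocytes out of blood, had r of 0.10, and Cxcr4 0.84. The list of resident and alternatively activated macrophages split, with a median of 0.00 (-0.30 without wt 6): Folr2 (0.86), Pf4 (0.84), the mannose receptor Mrc1 (0.83), Egr2 (0.78) and Stab1 (0.76) were positive, whereas the lectin Mgl2 (-0.54), Chil3 (-0.48), Cbr2 (-0.41), Retnla (-0.37) and Clec10a (-0.37) were negative. Retnla, which encodes a secreted resistin-like protein, had r of -0.90 without wt 6, in which it was lowest at 10.38.

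Proliferation genes were positive in 17 of 17, with a median of 0.73 and a median slope of 0.53. The median r was 0.84 in batch 1, 0.50 in batch 2 and 0.35 without wt 5 and wt 2. Pcna, the replication clamp, had r of 0.89 (14.07 to 15.84, median 14.92), the mitotic kinase Plk1 0.86, Cdc20 0.84 and Ccnb2 0.83. The list mean was highest in wt 5, at 8.94, and lowest in wt 1, at 7.11. Early response genes were mixed, with the stress factor Atf3 at 0.90, Dusp1 at 0.87, Fos at 0.83 and Fosb at -0.54.

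Other leukocytes moved along the same order in part. T cell genes had a median r of 0.52 and were positive in 12 of 12, with Cd28 at 0.82 and the T cell receptor subunit Cd3e at 0.79 (5.04 to 9.10, median 6.32); the list mean ranged from 5.39 to 7.66. B cell genes had a median of 0.49 and ran from 5.16 to 8.0 in their mean. Both means were highest in wt 9 and wt 2, not in wt 5. Genes of mast cells and eosinophils had a median of 0.52 (0.65 without wt 6), with the mast cell protease Cpa3 at 0.54 and a slope of 1.99 (6.05 to 14.86, median 9.90); the median was 0.79 in batch 1 and -0.02 in batch 2. Neutrophil genes (median -0.12) and dendritic cell genes (0.33) held no gene at 0.8 or above. How far lymphocytes and mast cells contribute to the genes with high r was not tested.

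**Figure D3:**
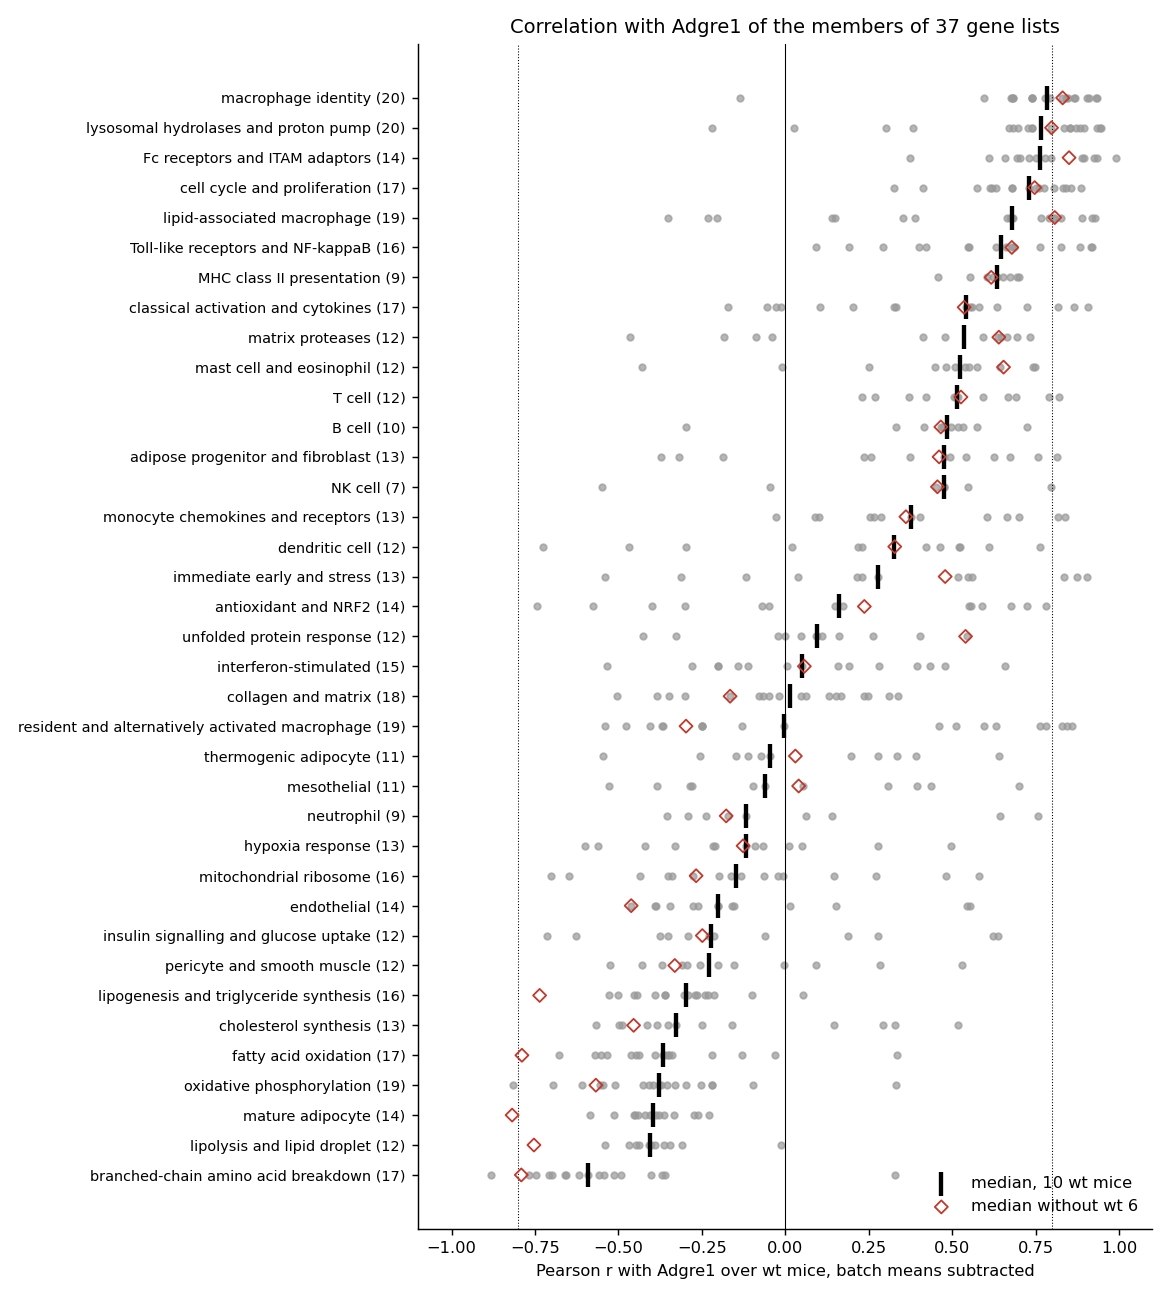
Pearson r with Adgre1 over the 10 wt mice, with batch means subtracted, for each measured member (grey points) of 37 gene lists, with the number measured in parentheses; black bars are medians and open red diamonds medians without wt 6. Dotted lines stand at -0.8 and 0.8. The macrophage identity list has the highest median, 0.79, and the mature adipocyte median moves from -0.40 to -0.82 without wt 6.

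The genes with the lowest r were led by Cgnl1, which encodes the junction protein paracingulin (chr9:71626507-71809300). It had r of -0.96 and a slope of -0.56, with 9.91 in wt 5, 11.22 at the median and 11.72 in wt 4. Mice wt 5, wt 9 and wt 2 were its 3 lowest. Nkd1, a brake on Wnt signalling, had r of -0.95 (7.73 to 9.31, median 8.59), and Cfap206, a protein of motile cilia, -0.95. Sort1, the sorting receptor sortilin of adipocyte glucose transporter vesicles, had r of -0.92 (13.64 to 15.11, median 14.84). Mitochondrial proteins among the 15 lowest were Clpb, a disaggregase (-0.91), and Prdx3, a peroxidase (-0.91). The others were Carhsp1 (-0.92), Scgb1b30 (-0.92), Bicdl1, a cargo adaptor (-0.92), the kinase Lmtk2 (-0.91), the actin regulator Nckap1 (-0.90), Pllp (-0.90), Serf1 (-0.89), Lzts2 (-0.88) and the ubiquitin ligase Arih2 (-0.88). Scgb1b30 is 1 of many similar secretoglobin genes, which its probes may also read. The steepest negative slopes belonged to Reep6, a shaper of the endoplasmic reticulum (-1.05; 11.37 to 14.86, median 13.38), Popdc2 (-0.86), the acute-phase protein gene Orm2 (-0.86), Atp6v0e2 (-0.83), Cenpv (-0.75), the adhesion receptor Adgrg1 (-0.71), the laminin chain Lamb3 (-0.71) and Elmo3 (-0.68). Slopes of this group were smaller: the median was -0.34 over the 165 genes and 0.56 over the 502. The 165 genes also had lower signals, with a median wt level of 6.91 against 10.14 for the 502 and 6.64 over all genes. Whether the slopes differed through signal level was not tested.

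Genes of the fat cell pointed the same way, but their r depended on single mice, wt 6 among them. All 14 measured genes of mature adipocytes had negative r, with a median of -0.40, and none passed -0.8. With each mouse left out in turn, the median lay between -0.82 and -0.01. Without wt 5 and wt 2 it was -0.11. Without wt 6 the median was -0.82 and 8 of the 14 were at -0.8 or below, among them the hormone-sensitive lipase Lipe (-0.90), Thrsp (-0.89), Cidec (-0.87) and the droplet coat Plin1 (-0.84). Adipoq, the adiponectin gene, had -0.36 with wt 6 and -0.76 without; it ranged from 17.38 to 19.29 with a median of 19.02. Batch 1, which does not hold wt 6, gave a list median of -0.88; batch 2 gave 0.29 with wt 6 and -0.57 in its other 4 mice. Averaged over the list, signals were 15.39 in wt 3 and 13.44 in wt 5. The same held for lipolysis and lipid droplets (median -0.41, and -0.75 without wt 6), lipogenesis (-0.30 and -0.74) and fatty acid oxidation (-0.37 and -0.79). Without wt 5 and wt 2 these 3 medians were -0.23, -0.30 and -0.15. In fatty acid oxidation, Etfdh went from -0.36 to -0.94 and Hadh from -0.55 to -0.93.

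Breakdown of branched-chain amino acids was the metabolic list with the lowest median in all 10 mice, -0.59 (-0.79 without wt 6), with 16 of 17 genes negative. This median was -0.84 in batch 1, -0.15 in batch 2 and -0.21 without wt 5 and wt 2. Bckdha, a subunit of the rate-limiting dehydrogenase, had r of -0.88 with and without wt 6 (8.26 to 10.17, median 9.64). Mccc2 had -0.77, Mmut -0.75 and Ivd -0.70, and Ppm1k, the phosphatase that activates the dehydrogenase, was the exception at 0.33. Oxidative phosphorylation had a median of -0.38 (-0.57 without wt 6, and -0.07 without wt 5 and wt 2), with Ndufa9 of complex I at -0.82. Insulin signalling had a median of -0.22: the adaptor Irs1 had -0.71 and the receptor Insr -0.63, while Igf1 had 0.64. The number of its 12 genes at -0.8 or below was 0, and 3 without wt 6; for the branched-chain list it was 1, and 5 without wt 6.

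Stromal lists differed in sign and between batches. Collagens and matrix had a median of 0.01 (-0.17 without wt 6), with Col1a1 at 0.17 and Col3a1 at 0.13. Matrix proteases and their inhibitors had 0.54, with Mmp3 at 0.73, Plau at 0.70 and Mmp2 at 0.64 against -0.47 for Timp4, an inhibitor made by adipocytes. Endothelial genes had -0.20 in all 10 mice, -0.46 without wt 6, -0.62 in batch 1 and 0.23 in batch 2. Smooth muscle genes had -0.23 (-0.33 without wt 6) and their highest mean, 9.78, in wt 6. Interferon-stimulated genes had 0.05, with a median of -0.40 in batch 1 and 0.78 in batch 2. The unfolded protein response had 0.09, or 0.54 without wt 6, in which its mean was highest at 13.6.

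**Figure D4:**
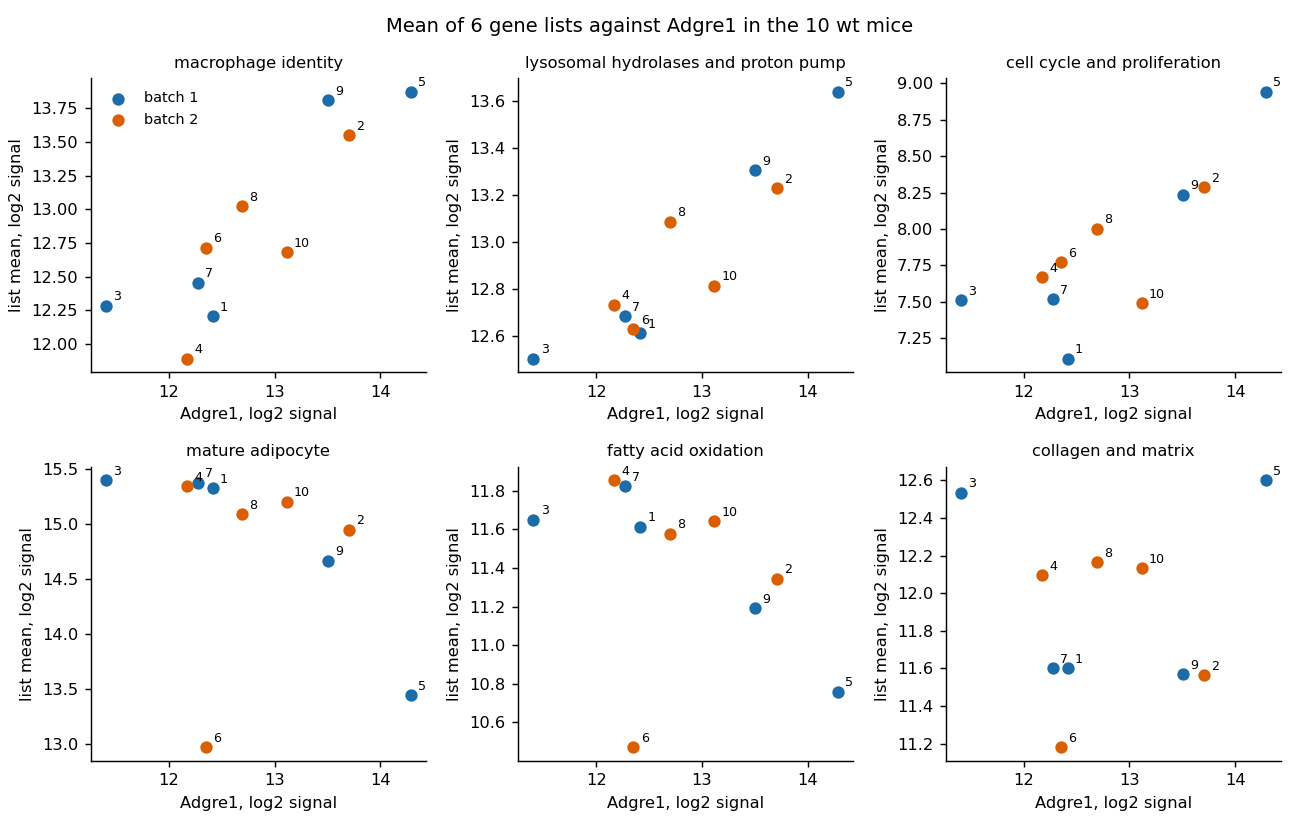
Mean log2 signal of 6 gene lists (vertical axes) against the log2 signal of Adgre1 (horizontal axes) in the 10 wt mice, numbered by replicate and coloured by batch. Mouse wt 6 lies low in the mature adipocyte list, at 12.97, and in fatty acid oxidation, at 10.47, the lowest value in both.

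The cre mice, whose values took no part in choosing the genes, tested whether the same genes followed Adgre1. Before that, the targeted gene was compared: Tnf was 1.99 ± 0.24 (SE) log2 units lower in cre than in wt mice, with 4.67 ± 0.43 against 6.66 ± 0.69 (SD, n = 10 each; limma, adjusted p = 0.000822), and the groups did not overlap. Over the 10 cre mice, 671 of the 19504 genes (3.44%) rose with Adgre1 and 252 (1.29%) fell, by limma's moderated test of the slope with Benjamini-Hochberg adjustment. Of the 502 genes with r of at least 0.8 in wt, 257 (51.2%) rose with Adgre1 in cre mice and 0 fell. A positive slope was found in 481 (95.8%, against 46.3% of all genes), and the median slope of the 502 was 0.48. Of the 165 genes with r of at most -0.8, 8 (4.85%) fell and 0 rose. A negative slope was found in 134 (81.2%, against 53.7% of all genes). The median slope of the 165 was -0.14, against -0.02 over all genes. At an unadjusted p under 0.05, 41 of the 165 genes had a negative slope and 0 a positive one; over all genes 7.96% had a negative and 9.43% a positive slope at that level. These counts leaned on cre 9. Without it, 128 of the 502 genes (25.5%, against 1.11% of all genes) rose and 2 of the 165 (1.21%, against 0.379%) fell. Without cre 9 and cre 3, 61 of the 502 (12.2%, against 0.42%) rose and 0 of the 165 fell, where 0.0308% of all genes did. For the 804 genes with r of at least 0.8 without wt 6, 331 (41.2%) rose in the 10 cre mice, and for the 765 with r of at most -0.8, 79 (10.3%) fell. Without cre 9 these counts were 145 (18%) and 32 (4.18%), and without cre 9 and cre 3 they were 66 (8.21%) and 1 (0.131%).

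Of the 23 genes named for the highest r or the steepest positive slope in wt, 20 rose with Adgre1 in cre mice, 15 did without cre 9 and 10 without cre 9 and cre 3. Itgax had a slope of 1.25 ± 0.11 (SE; limma, adjusted p = 0.00019) in cre mice, with signals from 8.28 to 12.43 and a median of 11.13. Tbxas1 had 0.99 ± 0.10 and Lair1 1.07 ± 0.12, and all 3 stayed past the threshold without cre 9 and cre 3. Pirb rose by 0.92 ± 0.15 per log2 unit (limma, adjusted p = 0.0024) with all 10 cre mice, and its adjusted p was 0.134 without cre 9 and cre 3. Gpr157 (0.25 ± 0.14), Rasal3 (0.26 ± 0.12) and Prcp (0.52 ± 0.15) did not pass limma's test adjusted over all probe sets. Of the 23 genes with the lowest r or steepest negative slope, all had negative slopes in cre mice and only Cenpv passed that test, at -0.80 ± 0.12 (limma, adjusted p = 0.0011), with an adjusted p of 0.0794 without cre 9 and cre 3. Cgnl1 had a slope of -0.29 ± 0.12 (limma, adjusted p = 0.21) and Nkd1 one of -0.01 ± 0.14 (0.984). A two-sided exact permutation of Adgre1 within batches, unadjusted, gave p under 0.05 for 21 of the 23 genes with positive r, Rasal3 among them and Gpr157 and Prcp not (against 8.34% of all genes), and for 8 of the 23 with negative r (against 6.91% of all genes). The 8 were Cenpv, Lzts2, Sort1, Cgnl1, Atp6v0e2, Clpb, Popdc2 and Nckap1. Besides Cenpv, the 8 of the 165 genes that fell in cre mice by limma held Grhpr, a glyoxylate reductase (-0.67 ± 0.12), the glycogen phosphorylase Pygb (-0.56 ± 0.13), Sccpdh (-0.53 ± 0.13) and Ndufs3 of complex I (-0.42 ± 0.11), named after their values were seen, and 3 predicted or uncharacterised genes.

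**Figure D5:**
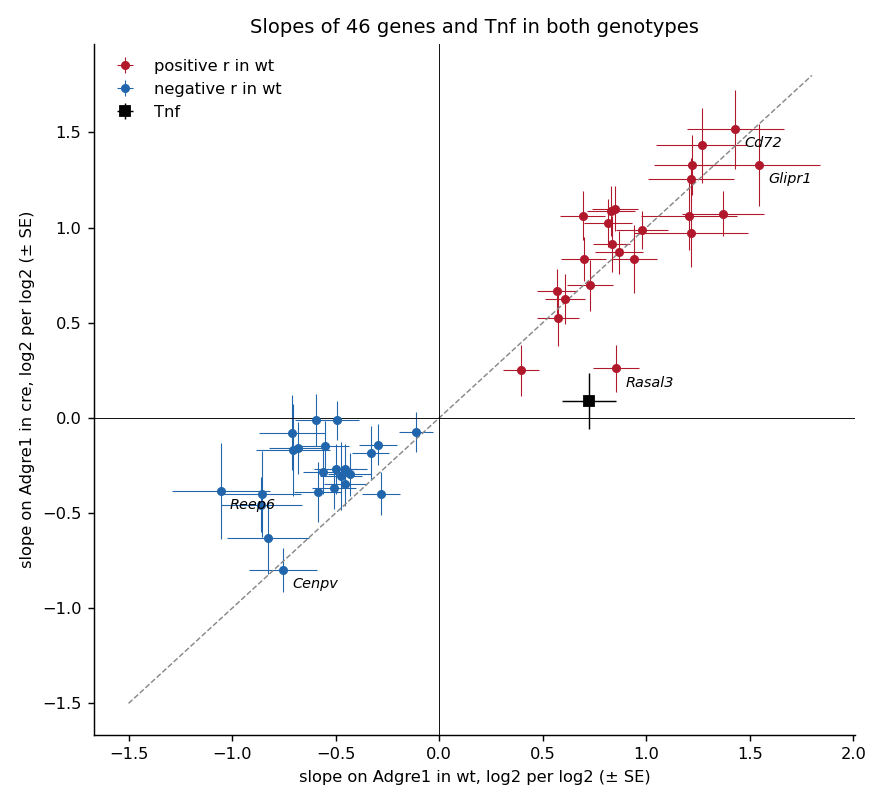
Slope on Adgre1 (log2 units per log2 unit) in wt mice (horizontal axis) and cre mice (vertical axis), with standard errors, for 46 genes chosen by r or slope in wt and for Tnf (square); n = 10 mice per genotype and the dashed line marks equal slopes. Among genes with positive slopes Rasal3 lies at 0.85 in wt and 0.26 in cre and Lgmn at 0.69 and 1.06, and Tnf stands at 0.72 and 0.09. The signal of Tnf in cre mice lay near the lower quartile of all signals.

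The counts by list stand beside these shares of all genes: 3.44% rose and 1.29% fell by limma in the 10 cre mice. Without cre 9 the shares were 1.11% and 0.379%, and without cre 9 and cre 3 they were 0.42% and 0.0308%. At an unadjusted p under 0.05, 9.43% had a positive slope, 7.96% a negative one and 3.09% a slope difference. By list, 16 of 20 macrophage identity genes rose with Adgre1 in cre mice (9 without cre 9, and 5 passed without cre 9 and cre 3), among them C1qc (slope 1.44), Clec12a (1.38), Cd84 (1.21) and Spi1 (1.07). Of the Fc receptor list 11 of 14 rose (5 without cre 9), of the lysosomal list 11 of 20 (2), of proliferation genes 6 of 17 (1) and of lipid-associated genes 8 of 19 (2). In the T cell list 0 of 12 rose by limma and in the B cell list 0 of 10 (3 and 1 had a positive slope at an unadjusted p under 0.05), with median slopes of 0.16 and 0.10 in cre and 0.54 and 0.58 in wt mice; the slope difference had an unadjusted p under 0.05 for 1 of 12 and 0 of 10. Of the mast cell and eosinophil list 3 of 12 rose, Cpa3, Mcpt4 and Tpsb2, with slopes of 1.92, 1.63 and 1.51. Without cre 9, 4 of 12 rose, and 1 passed without cre 9 and cre 3. Of 14 adipocyte genes, 4 fell in cre mice: Retn, the resistin gene (-1.0 ± 0.15), Thrsp (-0.97), Acvr1c (-0.59) and the lipase Pnpla2 (-0.51). Of the 14, 2 fell without cre 9 and 0 passed without cre 9 and cre 3. With all 10 mice 10 of 14 had a negative slope at an unadjusted p under 0.05. Of the lipogenesis and triglyceride synthesis list 1 of 16 fell, Pck1, the gluconeogenic enzyme that feeds glycerol synthesis in fat, at -1.33. The median slope of that list was -0.04 in cre and -0.28 in wt mice. In cre mice 4 of 16 had a negative slope at an unadjusted p under 0.05. Pck1 passed limma's test without cre 9 and had an adjusted p of 0.0613 in that test without cre 9 and cre 3. Of the hypoxia response list 1 of 13 fell, Vegfa, at -0.70, with an adjusted p of 0.0039 in limma and 0.0613 without cre 9. The median slope of that list in cre mice was 0.05, and 3 of 13 had a negative slope at an unadjusted p under 0.05. Of the branched-chain list 3 of 17 fell, Hibch, Ivd and Hibadh, and 0 did without cre 9 or without both set-apart cre mice; with all 10 mice 15 of 17 had a negative slope at an unadjusted p under 0.05. Of fatty acid oxidation 0 of 17 fell (2 at an unadjusted p under 0.05, against 7.96% of all genes). In the collagen and matrix list 5 of 18 genes rose in cre mice, Col1a1 (0.80), Col3a1 (0.72), Col1a2 (0.65), Lox (0.58) and the inhibitor Timp1 (1.08), and 0 of them did without cre 9; the slope difference between genotypes had an unadjusted p under 0.05 for 0 of 18.

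The difference between the slopes of the 2 genotypes was tested in all 20 mice. For 0 of the 19504 genes did it pass Benjamini-Hochberg adjustment in limma, and 603 (3.09%) had an unadjusted p under 0.05. Tnf had a difference of -0.63, cre minus wt, with a 95% interval from -1.06 to -0.20 (limma, unadjusted p = 0.00596, adjusted p = 1). In cre mice Tnf lay between 3.91 and 5.34, had a slope of 0.09 ± 0.15 (limma, adjusted p = 0.822), and cre 9 and cre 7, the lowest in Adgre1, had 4.41 and 4.63. The median of Tnf in cre mice was 4.58, where the lower quartile of all signals lay between 4.59 and 4.92 over the 20 arrays. Whether low signal flattened this slope was not tested. Of the 502 genes 39 and of the 165 genes 34 had an unadjusted p under 0.05, but their wt slopes had chosen them, so that nothing is read from these counts. Rasal3 had a difference of -0.59, Lgmn 0.37, Nkd1 0.59 and Lmtk2 0.48, and 0 of these 4 passed adjustment over all genes.

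The mean levels of the 2 genotypes were compared for the same genes. With limma, genotype and batch, 1 of the 19504 genes (0.00513%) passed adjustment, Tnf, which is among the 502; 3% of all genes were lower and 3.36% higher in cre mice at an unadjusted p under 0.05. Of the 502 genes, 28 (5.58%) were lower and 3 (0.598%) higher by that criterion. A lower mean in cre mice, as Adgre1 had, was found in 395 of them, against 9458 of all 19504 genes. The median difference over the 502 was -0.19, against 0.01 over all genes. Of the 165 genes, 4 (2.42%) were lower and 8 (4.85%) higher. Lyz2, the lysozyme gene that holds the Cre insertion in LyzM-Cre mice and had r of 0.74 with Adgre1 in wt, was 1.55 ± 0.29 (SE) lower in cre mice without passing adjustment over all probe sets (limma, adjusted p = 0.176), with 15.85 to 17.78 in wt and 14.08 to 16.22 in cre mice.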

How the data were processed

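Total RNA of epididymal fat was hybridised to expression arrays. The authors deposited log2 signals of 22206 probe sets on 20 arrays. The software named is RMA in the Transcriptome Analysis Console, release 4.0.2.15, with build mm10, per the submitters' processing notes. RMA makes array distributions alike, so a change shared by most genes is lost. The number of arrays limits the precision. Group, batch and replicate came from the sample titles. The platform annotation gave 19572 probe sets 1 symbol, 0 several and 2634 none; all 19572 matched RefSeq's GRCm38.p6 gene table. The probe set with the highest mean stood for a gene, leaving 19505 genes.

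Correlations used Python 3.11.15 with NumPy 2.4.6, pandas 2.3.3 and SciPy 1.17.1; slopes and differences used limma 3.58.1 in R 4.3.3 (batch as a term, eBayes without trend, Benjamini-Hochberg over all probe sets, threshold 0.05). The slope test was tested on 20 simulated data sets with 200 changed of 22205 probe sets: 30.95% of slopes of 0.5 and 88.65% of slopes of 1 were recovered, and 4.653% of calls were false. The simulated noise was normal and independent between probe sets, without batch effects or outlying mice. These shares therefore need not hold for the real arrays. Figures used matplotlib 3.10.9.

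The members and lists were chosen with earlier results of these data known. Named were Adgre1, Tnf and Lyz2; among genes above the median wt signal without Gm or Rik names, the 15 highest and 15 lowest r and the 8 steepest slopes each way among r past 0.8 in size; and members of 45 lists (571 of 620 entries measured; Cd68, Spp1 and Cd74 had no match), of which up to 4 leading ones by rule and others to show the list's range, the latter chosen after their values were seen. Alternatives covered batch, anchor, correlation, prior, normalization, a filter on low signals, the replicate number as a block and leaving out mice. Same-numbered wt and cre mice were not taken as pairs: 4 of 10 pairs correlated over 0.1.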

Additional observations from a re-analysis of the deposited data

Results flagged for a closer look

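In 94 groups of wt values looked at for a mouse far from the other 9 (49 genes and 45 list means), 10 held such a mouse; chance gives about 1 in 20. Mouse wt 6 accounted for 6 of them: it was highest in the mean of the seminal vesicle list (16.8), the prostate list (7.56), the bladder epithelium list (4.99), the unfolded protein response (13.6) and pericyte and smooth muscle genes (9.78), and lowest in resident and alternatively activated macrophage genes (8.84). Mouse wt 4 was far above the others in exocrine pancreas genes (7.76), wt 7 in skeletal muscle genes (7.71) and wt 10 in neutrophil genes (6.60). Cfap206 was lowest in wt 5, the mouse of highest Adgre1, at 7.07. The prostate mean of wt 6 rested on Spink1 alone.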

How the results depend on the processing

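With each wt mouse left out, 348 to 804 genes had r of at least 0.8 and 176 to 765 had r of at most -0.8; without the 2 wt mice set apart by other tissues, an alternative chosen after seeing the data, there were 928 and 929. The count with r of at most -0.8 was 107 with batch means taken over 20 arrays and 289 with the macrophage list mean in place of Adgre1. In cre mice 728 probe sets rose and 278 fell with Adgre1; leaving out single mice gave 239 to 758 and 83 to 274, leaving out cre 3 and cre 9 gave 90 and 10, and omitting the batch term gave 425 that fell. No setting made a slope difference pass adjustment (0 with each mouse left out). The genotype count of 1 was 0 with the replicate block, 2 with Adgre1 as a covariate and 1 to 2 with each mouse left out. The genotype difference of Adgre1 turned from -0.28 to 0.12 in batch 2 alone and lay between -0.42 and -0.08 with each mouse left out. The causes were not tested. Under these alternatives 4409 values of r of the genes named by rule moved by less than their jackknife error and 312 by more. The slopes of the same genes in cre mice stayed on their side of the threshold 3612 times, lost it 159 times and gained it 46 times.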
